A study of Mus musculus with 6 samples.

Results

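Genes that build and reshape actin filaments were examined in mouse Th1 cells cultured with or without ALX-5407, which blocks GlyT1, a carrier of glycine. The group held 10 of the 54532 genes in the count table. They were the villin and gelsolin family genes Avil, Capg, Gsn, Flii and Svil, the actin-binding LIM genes Ablim1 and Ablim3, the cytoplasmic actin genes Actb and Actg1, and the kinase gene Pak1. The members were matched by gene symbol. The group was chosen by the measured counts of these same 6 libraries, because Avil rose while Ablim3 and Pak1 fell. Their differences between the groups are therefore given as a description, without a test.

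The control group was 3 cultures of CD4+ T cells from the spleens of male C57BL/6 mice aged 6 to 8 weeks, kept under Th1 conditions for 72 h with vehicle (0.1% DMSO). The treated group was 3 cultures of the same kind with 500 nM ALX-5407. All 6 cultures were stimulated through CD3 and CD28 with IL-2, IL-12 and an antibody against IL-4, and no source used here says whether cells of several mice were pooled. The sample titles give 72 h for the Th1 culture with ALX-5407 and do not time the exposure separately. The study's RNA sequencing methods give a shorter exposure, whereas its culture methods and a figure legend describe ALX-5407 in the medium of the 72 h culture. The labels describe capture of polyadenylated RNA, whereas the methods describe removal of ribosomal RNA. The labels call the samples biological replicates without tying them to mice, so the standard deviations (SD) below measure the spread between these cultures. The standard errors come from a fit that also draws on the spread of other genes.

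Each library held 30801753 to 36727788 counted reads, and correlations of log2 CPM (normalised read counts, scaled to library size with TMM) across genes were 0.988 to 0.991 for libraries of 1 group and 0.965 to 0.970 for libraries of different groups. The 7 T cell markers (Cd3e, Cd3d, Cd3g, Cd4, Trac, Cd5 and Lck) summed to 2284 to 2436 CPM in the control group and 2086 to 2173 CPM in the treated group. The 5 Th1 markers summed to 1299 to 1493 CPM in the control group and 1046 to 1085 CPM in the treated group, but moved in different directions. From control to treated means, Ifng (660 to 383 CPM) and Il18r1 (160 to 94.5 CPM) were lower. Tbx21 (81.6 to 104 CPM) and Cxcr3 (8.24 to 9.78 CPM) were higher, and Il12rb2 (475 and 473 CPM) overlapped between the groups. The 7 myeloid markers summed to 15.7 to 21.3 CPM in control and 5.41 to 6.70 CPM in treated cultures, nearly all of it Cd68, whereas Lyz2 had at most 8 reads in any library and Adgre1 had 1 read in all. The 5 B cell markers summed to 7.60 to 8.84 CPM in the control group and 11.4 to 14.4 CPM in the treated group, and the 4 platelet markers were at 3.72 to 5.07 CPM and 7.84 to 10.4 CPM. Of the 5 neutrophil markers, S100a8, S100a9 and Elane had no read and Ly6g carried the sum of 69.9 to 75.3 CPM in control and 24.1 to 31.6 CPM in treated cultures. The 5 dendritic cell markers, the 5 stromal markers and the 2 CD8 T cell markers stayed under 10 CPM in every library. The mast cell or basophil, NK and erythroid markers stayed under 2 CPM. Of the 3 endothelial markers, Cdh5 had no read and Pecam1, which T cells also express, carried most of the sum of 73.0 to 81.4 CPM in control and 62.1 to 64.6 CPM in treated cultures. The part of these other cell types in the values below was not tested, and in bulk RNA fewer cells of a type and less RNA per cell cannot be told apart.

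Actin monomers assemble into filaments that give T cells their shape, drive migration and form the contact with an antigen-presenting cell. Proteins of the villin and gelsolin family are built from gelsolin-like domains and cut, cap or bundle these filaments, several of them under control of calcium. ABLIM proteins join LIM domains to a villin-type headpiece that binds filaments. PAK1 is a kinase that is switched on by the GTPases RAC and CDC42 and, through LIM kinase, restrains the filament-severing protein cofilin. Both cytoplasmic actin genes are textbook targets of the transcription factor SRF, which binds a sequence called the CArG box.

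Promoter sequences were available in the RefSeq table (GRCm38.p6) for 7 of the 10 genes, in 14 windows of 250 bases before an annotated start. Actb, Svil and Ablim3 had no window, so nothing is known here of a CArG box upstream of them. A CArG box was searched in these windows. The pattern reads the same on both strands. Of the 14 windows, only that of Actg1 held one, beginning 90 bases before the start (-90), against 1.47% of all 32851 windows in the table. The windows of Actg1 and of Avil, the gene of the group with the highest log2 fold change, are shown 5′ to 3′, with the CArG box in capitals. The Actg1 window lies on the minus strand at chr11:120348543-120348745, cut to the 203 bases outside the annotated gene, and the Avil window lies on the plus strand at chr10:127000459-127000708.
Actg1: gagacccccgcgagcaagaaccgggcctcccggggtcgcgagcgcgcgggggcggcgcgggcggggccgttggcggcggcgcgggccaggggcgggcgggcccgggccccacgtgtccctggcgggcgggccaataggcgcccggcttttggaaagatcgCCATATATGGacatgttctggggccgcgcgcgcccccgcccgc
Avil: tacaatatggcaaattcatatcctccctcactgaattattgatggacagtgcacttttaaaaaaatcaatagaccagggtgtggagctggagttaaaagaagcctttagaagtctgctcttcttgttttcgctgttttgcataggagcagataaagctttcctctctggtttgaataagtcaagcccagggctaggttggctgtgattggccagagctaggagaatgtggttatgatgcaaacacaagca
The full windows also differed in base composition, with 79.2% G and C upstream of Actg1 and 42.0% upstream of Avil, against a median of 52.4% over all windows. The absence of a match upstream of Avil says only that these letters are not in this stretch.

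All 10 genes passed the filter on low counts and were among the 15938 genes fitted. Their levels spanned more than 3 orders of magnitude. Per length (RPKM, CPM per kilobase of merged exons), Actb came first in the control group at 1192 ± 89.2 RPKM (SD, n = 3), followed by Actg1 at 731 ± 87.9, Capg at 78.9 ± 5.08, Ablim1 at 67.7 ± 3.59, Flii at 31.3 ± 1.70, Gsn at 24.6 ± 2.50, Pak1 at 13.3 ± 1.16, Svil at 3.31 ± 0.142, Ablim3 at 0.826 ± 0.160 and Avil at 0.226 ± 0.137 RPKM. No neighbours in this order overlapped among the 3 control libraries. In the treated group the order changed at 3 places. Ablim1 (61.9 ± 0.921 RPKM) stood above Capg (57.4 ± 2.70), Svil (5.29 ± 0.510) stood beside Pak1 (4.56 ± 0.491) with overlapping libraries, and Avil (1.79 ± 0.338) stood above Ablim3 (0.0590 ± 0.0136 RPKM, SD, n = 3 each). The place of Capg and Ablim1 depends on the length used: with the longest annotated transcript in place of merged exons, the treated level of Capg was 104 RPKM and that of Ablim1 103 RPKM.

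**Figure D1:**
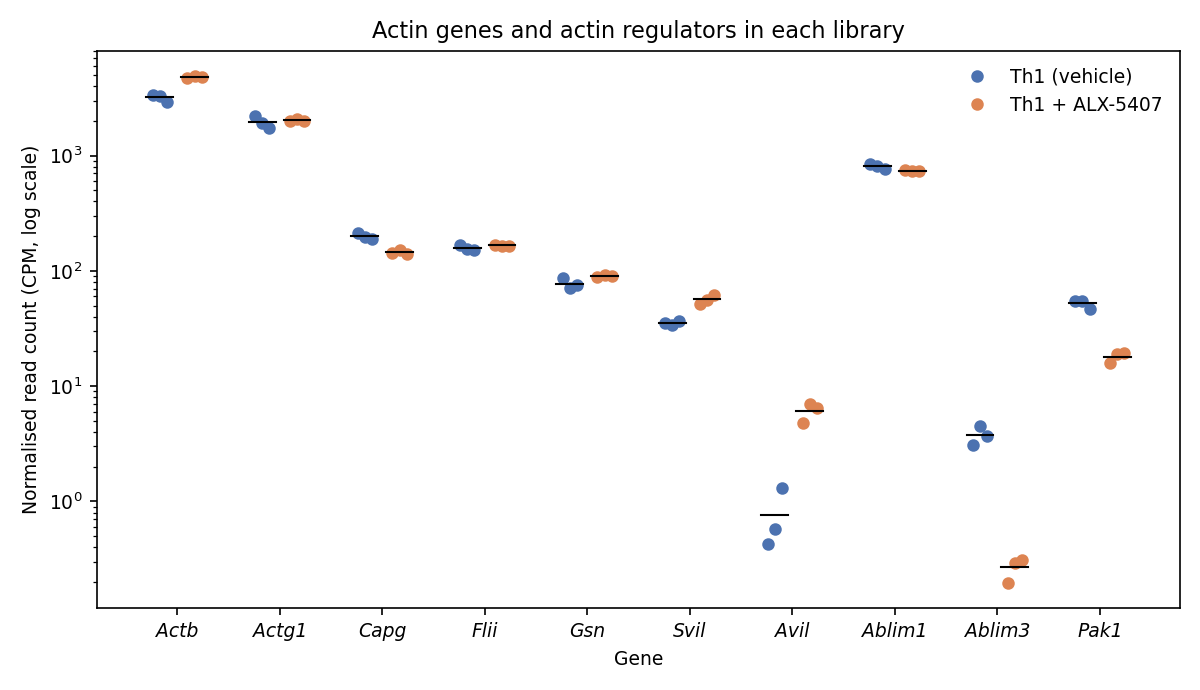
Normalised read count (CPM, log axis) of the 10 genes in each of 6 libraries, 3 with vehicle and 3 with ALX-5407; points are libraries and bars are group means. Avil lies at 0.430 to 1.30 CPM with vehicle and 4.79 to 6.97 CPM with ALX-5407, Ablim3 and Pak1 lie lower with ALX-5407, and the groups of Flii and Actg1 overlap.

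Of the 10 genes, 4 had all treated libraries above all control libraries in CPM (Avil, Svil, Actb and Gsn), 4 had them below (Capg, Ablim1, Ablim3 and Pak1), and 2 overlapped (Flii and Actg1). Among all genes fitted, 55.5% did not overlap between the groups, 28.4% with the treated group above and 27.1% with it below. At an adjusted p-value under 0.05 in edgeR, 4 members were higher and 3 lower, against 24.5% and 23.2% of all genes (47.7% in either direction), and since this contrast chose the members, nothing is read from these counts. The median log2 fold change of the 10 genes was 0.064, against 0.0053 over all genes fitted.

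**Figure D2:**
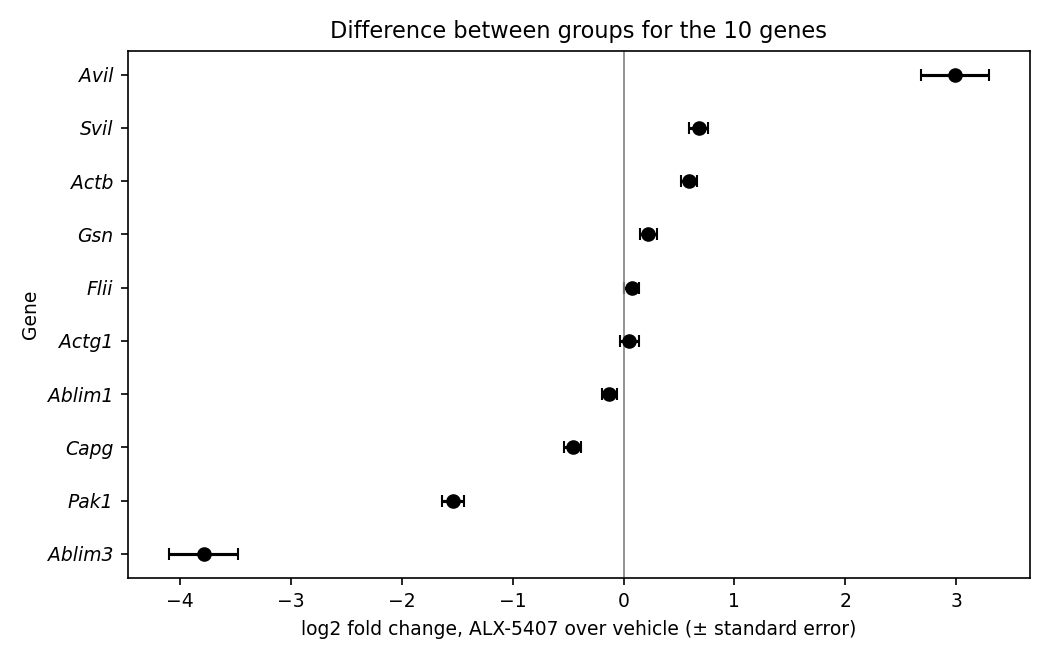
Log2 fold change (ALX-5407 over vehicle, edgeR) of each of the 10 genes, with bars for the standard error. The values run from -3.79 for Ablim3 to 2.99 for Avil, and those of Flii (0.074) and Actg1 (0.053) lie near 0.

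Among the villin and gelsolin genes, Avil (ENSMUSG00000025432, chromosome 10, 127000709 to 127020994, plus strand) encodes advillin, a calcium-regulated filament-binding protein best known from sensory neurons. Its reads numbered 14, 18 and 40 in the control libraries and 169, 260 and 228 in the treated libraries. Every treated library lay above every control library, and the third control culture stood above the other two. The level went from 0.768 ± 0.466 to 6.09 ± 1.15 CPM (SD, n = 3 each), which gave a log2 fold change of 2.99 (standard error, SE, 0.305) or 7.94-fold. Without the third control culture the log2 fold change was 3.58.

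The last part of Avil lies opposite Tsfm, a mitochondrial translation factor gene on the minus strand. Their exons share 165 bases, which are 4.86% of the exon bases of Avil and 5.68% of those of Tsfm. The use of strand in counting is not given in the sources used here, so reads in those bases cannot be assigned to either gene with certainty. Reads of Tsfm outnumbered those of Avil in every library. How many of the few control reads of Avil lie in the shared bases was not tested. Tsfm had 550, 546 and 437 reads in the control libraries and 770, 716 and 898 in the treated ones, a log2 fold change of 0.46 (SE 0.120, adjusted p = 0.00489 in the quasi-likelihood test of edgeR, adjusted after Benjamini and Hochberg). Ctdsp2, a phosphatase gene that ends 734 bases before Avil, also rose, with a log2 fold change of 0.43 (SE 0.0791, adjusted p = 0.000307 in edgeR). On the other side, at 20420 bases, Mettl1, a tRNA methyltransferase gene, fell by 0.32 on the log2 scale (SE 0.107, adjusted p = 0.0213 in edgeR, and 0.120 without the second control culture). Tsfm and Ctdsp2 had an adjusted p under 0.05 in all 14 alternatives of scaling, filter, tool, block or culture left out, and Mettl1 in 11 of 14. Among all genes tested, 24.5% were higher and 23.2% lower at this threshold. Whether these genes and Avil changed together was not tested. Flanking genes here and for Ablim3 and Pak1 are the nearest with a mean of at least 50 counts.

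Svil (ENSMUSG00000024236, chromosome 18, 4920540 to 5119299) encodes supervillin, which links filaments and myosin II to the membrane. It was counted 1144, 1066 and 1139 times in control and 1813, 2098 and 2182 times in treated libraries. The groups were well apart, at 35.4 ± 1.52 and 56.6 ± 5.46 CPM (SD, n = 3 each), with a log2 fold change of 0.68 (SE 0.0858).

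Gsn (ENSMUSG00000026879, chromosome 2, 35256380 to 35307892) encodes gelsolin, the family's founding severing and capping protein. Its CPM values were 86.4, 71.1 and 75.3 in control and 88.5, 92.7 and 90.8 in treated libraries. The first control culture came close to the lowest treated one, and the log2 fold change was 0.22 (SE 0.0798). Flii (ENSMUSG00000002812, chromosome 11, 60714123 to 60727263), whose protein joins gelsolin-like domains to leucine-rich repeats, was at 168, 154 and 152 CPM in control and 169, 164 and 165 CPM in treated libraries. The groups overlapped, and the log2 fold change was 0.074 (SE 0.0695). Flii shares 64 exon bases (1.27%) with Llgl1 on the other strand, which stood at 0.069 on the log2 scale (adjusted p = 0.586 in edgeR).

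Capg (ENSMUSG00000056737, chromosome 6, 72544391 to 72562983) encodes a protein that caps filament ends without cutting them. Of the 5 family genes in the group it alone had all treated libraries below the control libraries. It was at 214, 196 and 189 CPM in control and 143, 153 and 139 CPM in treated cultures. The log2 fold change was -0.46 (SE 0.0735). Of the family genes outside the group, Vill and Scin also had all treated libraries below, and Vil1, with a mean of 2.67 reads, overlapped. The gene model Gm43128, which overlaps Gsn, had a mean of 6.5 reads and was not tested. Gsn and Capg are also abundant in myeloid cells, whose markers are given above, and the part of such cells in these values was not tested.

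The ABLIM genes of the group were expressed at very different levels. Both had all treated libraries below the control libraries, but by very different amounts. Ablim1 (ENSMUSG00000025085, chromosome 19, 57032733 to 57314919) was counted 27552, 25624 and 23444 times in control and 26575, 27332 and 25752 times in treated libraries. Scaled for library size, it was at 808 ± 42.9 CPM in control and 740 ± 11.0 CPM in treated cultures (SD, n = 3 each). The lowest control library (762 CPM) lay just above the highest treated one (753 CPM), and the log2 fold change was -0.13 (SE 0.0696). Ablim3 (ENSMUSG00000032735, chromosome 18, 61799395 to 61911852), whose protein binds filaments and a partner called STARS, had 100, 142 and 114 reads in control libraries and 7, 11 and 11 reads in treated ones. Its groups were far apart, at 3.77 ± 0.731 and 0.269 ± 0.0620 CPM (SD, n = 3 each), which gave a log2 fold change of -3.79 (SE 0.312). With so few reads left in the treated libraries, the size of this difference is less precise than that of the abundant members.

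Near Ablim3, the antisense gene 1500015A07Rik, 63478 bases away, had a log2 fold change of 0.40 (SE 0.284, adjusted p = 0.264 in edgeR).

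Actb (ENSMUSG00000029580, chromosome 5, 142903115 to 142906754) encodes beta-actin. It had 109710, 103051 and 89869 reads in control and 166939, 182647 and 168348 reads in treated libraries. Normalised, it was at 3192 ± 239 and 4808 ± 84.5 CPM (SD, n = 3 each), which gave a log2 fold change of 0.59 (SE 0.0730) or 1.51-fold, with no overlap. Actg1 (ENSMUSG00000062825, chromosome 11, 120345690 to 120348542), which encodes gamma-actin, had 71482, 59605 and 53366 reads in control and 70367, 77112 and 69773 reads in treated libraries. Its control libraries spread from 1734 to 2195 CPM and took in all 3 treated libraries, at 1990 to 2067 CPM. The log2 fold change was 0.053 (SE 0.0825), and it was -0.039 without the third control culture.

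The actin genes therefore moved unequally within each library. The ratio of Actb to Actg1 reads was 1.53, 1.73 and 1.68 in control and 2.37, 2.37 and 2.41 in treated libraries, with no overlap. Together they took 0.465% to 0.542% of all counted reads in the control group and 0.683% to 0.707% in the treated group. The transcripts Actb-201 and Actg1-202 aligned at 87.8% identity over 1186 bases, but only 1.60% of the 50-base windows of the Actb transcript occurred unchanged in that of Actg1. Of annotated pseudogenes, 5 matched Actg1 at 95% identity or more over at least 200 bases and 0 matched Actb. Reads counted on these 5 copies came to 1.57% to 2.88% of those on Actg1, and with the copies added the log2 fold change of Actg1 was 0.042. The microRNA genes Gm23419 and Mir6935, which lie within Actg1, had no read.

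Pak1 (ENSMUSG00000030774, chromosome 7, 97788541 to 97912381) had 1795, 1714 and 1447 reads in control libraries and 556, 706 and 675 reads in treated libraries. All treated libraries lay far below the control libraries, at 15.7 to 19.3 CPM against 47.0 to 55.1 CPM. The log2 fold change was -1.54 (SE 0.0995). Upstream of Pak1, Clns1a rose by 0.26 on the log2 scale (SE 0.0816, adjusted p = 0.0154 in edgeR, and 0.0653 without the first treated culture). Downstream, Myo7a, an unconventional myosin gene, fell by 0.65 on the log2 scale (SE 0.0992, adjusted p = 5.33e-05 in edgeR).

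These differences changed the make-up of the families. Of the summed RPKM of the 8 villin and gelsolin family genes, Capg held 55.6% ± 0.826 in the control group and 44.7% ± 1.14 in the treated group (SD, n = 3 each). The share of Gsn went from 17.3% ± 0.839 to 22.4% ± 0.301 and that of Flii from 22.1% ± 0.192 to 25.7% ± 0.892. Svil went from 2.34% ± 0.188 to 4.12% ± 0.418, and Avil from 0.162% ± 0.104 to 1.39% ± 0.244. Avil was a minor gene of the family in both groups. The share of Vill went from 1.97% to 1.64%, that of Scin from 0.463% to 0.105% and that of Vil1 from 0.0104% to 0.0214%. Shares depend on each other, so a share can rise where the gene's own level does not. Flii itself was at 31.3 RPKM in control and 33.0 RPKM in treated cultures, with overlapping libraries. The sum itself was 142 ± 8.58 RPKM in control and 128 ± 2.96 RPKM in treated cultures (SD, n = 3 each). Pak1 held 27.7% ± 1.08 of the summed RPKM of Pak1, Pak2 and Pak3 in the control group and 10.5% ± 0.961 in the treated group (SD, n = 3 each). Pak2 made up the rest, and Pak3 had no read in any library. The ratio of Pak1 to Pak2 in RPKM was 0.363 to 0.404 in control and 0.104 to 0.126 in treated libraries.

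**Figure D3:**
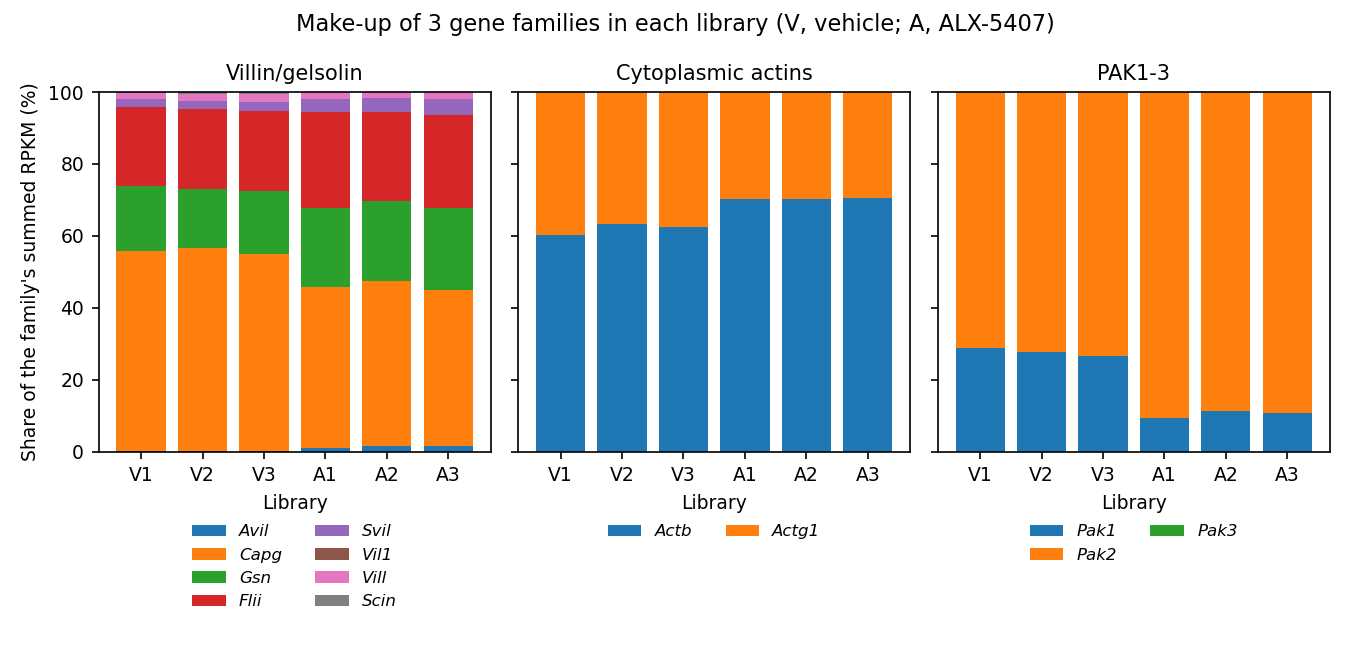
Share (%) of each gene in the summed RPKM of its family in each library (V1 to V3, vehicle; A1 to A3, ALX-5407), for villin and gelsolin genes, cytoplasmic actins and Pak1 to Pak3. Capg and Scin hold smaller shares and Gsn, Flii, Svil and Avil larger shares with ALX-5407, although the level of Flii overlapped between the groups. Actb goes from 62.0% to 70.3% of the actin sum, and Pak1 from 27.7% to 10.5% of the PAK sum.

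To place these genes among other actin regulators, 12 lists with 211 further genes were examined, none of them a member. Of these, 184 were tested, and 59 were higher and 42 lower in treated cells at an adjusted p-value under 0.05 in edgeR's quasi-likelihood test. These are 32.1% and 22.8%, against 24.5% and 23.2% of all genes tested. With a change of more than 1 on the log2 scale as well, 3 of the 184 were up and 5 of the 184 were down. Both are smaller shares than the 3.36% and 6.68% among all genes tested. The median log2 fold change of the lists was 0.050, against 0.0053 for all genes, and it was -0.0030 with upper quartile scaling and -0.0021 without the third control culture.

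Closest to the members are other relatives of the villin and gelsolin genes, of which 8 of 9 were tested, with 2 higher and 3 lower and a median of 0.13. The higher count was 1 without the first control culture or the third treated culture. Scin, which encodes the severing protein adseverin, fell. Scin went from 1.96 ± 0.255 to 0.402 ± 0.117 CPM (SD, n = 3 each), which gave a log2 fold change of -2.28 (SE 0.350, adjusted p = 5.49e-05 in edgeR), at a mean of only 38 reads. Vill, a villin-like gene, fell by 0.40 on the log2 scale (adjusted p = 0.0132 in edgeR, and 0.0543 without the second treated culture). Cotl1, a filament-binding coactosin, rose by 0.37 (adjusted p = 0.00119) and Twf1, a monomer-binding twinfilin, by 0.30 on the log2 scale (adjusted p = 0.0257 in edgeR, and 0.150 without the first control culture and 0.0917 without the third treated culture). Twf1 shares 12.9% of its exon bases with Irak4 on the other strand. Vil1 itself had a mean of 2.67 reads and was not tested. Of the 6 other actin and actin-like genes, only Actl6a, a chromatin remodelling subunit, was tested, and it rose by 0.34 on the log2 scale (adjusted p = 0.00163 in edgeR). Actl6a shares 11.6% of its exon bases with Mrpl47 on the other strand. The muscle actin genes Acta1 and Actc1 had no read.

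Among 31 tested genes of the PAK and small GTPase list, 12 were higher and 7 lower, with a median of 0.12. The lower count was 11 without the third control culture. Vav3, an exchange factor for Rac, rose by 1.07 (adjusted p = 2.49e-06), Pak4 by 0.79 (adjusted p = 7.23e-05) and Git1, a scaffold that brings PAK to adhesions, by 0.69 on the log2 scale (adjusted p = 4.93e-06 in edgeR). Rhoq, a Cdc42-like GTPase gene, fell by 0.63 on the log2 scale (adjusted p = 7.24e-06 in edgeR). Pak2, the other PAK of the first subgroup with reads, had a log2 fold change of 0.17 (SE 0.0700, adjusted p = 0.0542 in edgeR, and from 0.0103 to 0.175 over 14 alternatives). Of the GTPase genes whose products switch on PAK1, Rac1 was at 0.12 (adjusted p = 0.194), Rac2 was at -0.061 (adjusted p = 0.539) and Cdc42 was at 0.19 on the log2 scale (adjusted p = 0.0416 in edgeR, but 0.179 without the first control culture, and under 0.05 in only 6 of 14 alternatives).

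Of the 14 cofilin and LIM kinase genes, all tested, 4 were higher and 4 lower, with a median of 0.097. The higher count was 2 when the second control, the third control, the first treated or the second treated culture was left out. Tesk2 (0.64, adjusted p = 0.0245) and Tesk1 (0.63, adjusted p = 0.00232), which encode kinases of cofilin, rose in edgeR, but they share 28.4% and 32.1% of their exon bases with Toe1 and Cd72 on the other strand and are uncertain. Tesk2 had an adjusted p of 0.0981 without the third control culture and lay above 0.05 without the second control, first treated or second treated culture too. Dstn, the severing protein destrin, fell by 0.58 (adjusted p = 6.88e-05) and Cfl2, the muscle-type cofilin, by 0.53 on the log2 scale (adjusted p = 0.00132 in edgeR). Cfl1, the main cofilin gene of these cells at 984 ± 69.8 CPM in control and 952 ± 65.3 CPM in treated cultures (SD, n = 3 each), stood at -0.048 on the log2 scale (adjusted p = 0.645 in edgeR), and Limk1 had 0.25 (adjusted p = 0.0377 in edgeR, but 0.128 without the second control culture, and under 0.05 in only 5 of 14 alternatives).

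Among the 13 tested capping and monomer-binding genes, 3 were higher and 2 lower, with a median of 0.099. Both that fell encode thymosins, small proteins that hold actin monomers. Tmsb10 went from 2822 ± 665 to 1384 ± 158 CPM (SD, n = 3 each), which gave a log2 fold change of -1.03 (SE 0.129, adjusted p = 7.16e-06 in edgeR), and Tmsb4x from 3073 ± 178 to 2186 ± 82.1 CPM (SD, n = 3 each), which gave a log2 fold change of -0.49 (SE 0.0715, adjusted p = 3.19e-05 in edgeR). Add3, a capping adducin, and Eps8, a barbed-end capper, rose by 0.72 (adjusted p = 7.34e-07) and 0.47 on the log2 scale (adjusted p = 0.00135 in edgeR).

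Lists of filament nucleators, elongation factors and their regulators came next. Of 31 tested genes of the Arp2/3, WASP and WAVE list, 10 were higher and 4 lower, with a median of 0.062, and 7 were lower without the third control culture. Coro2a, Coro1c, Cyfip2 and Arpc5l had the largest changes by the rule, with log2 fold changes of 0.85, 0.75, 0.74 and 0.66 (adjusted p-values from 3.04e-07 to 3.41e-06 in edgeR). Of 13 tested formin and Ena/VASP genes, 8 were higher and 1 lower, with a median of 0.32, and 0 were lower without the first treated culture. Fhod1 rose by 0.83 (adjusted p = 5.87e-06), Fmnl3 by 0.49 (adjusted p = 0.00014), Daam1 by 0.43 (adjusted p = 0.00196) and Evl by 0.34 on the log2 scale (adjusted p = 0.00285 in edgeR).

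Of the 23 tested bundling and cross-linking genes, 2 were higher and 4 lower, with a median of -0.054. The higher count was 1 without the second control or first treated culture. Marcks, a membrane-bound filament cross-linker, rose by 1.52 on the log2 scale (adjusted p = 5.31e-07 in edgeR). Tpm4, a tropomyosin, fell by 0.57 (adjusted p = 4.76e-06) and Espn, the bundler espin, by 0.45 on the log2 scale (adjusted p = 0.00148 in edgeR). Of the 12 membrane linker genes, all tested, 5 were higher and 3 lower, with a median of 0.029. Slc9a3r1, an adaptor for ezrin-type proteins, rose by 0.85 (adjusted p = 3.80e-07), Tln2 by 0.77 (adjusted p = 0.00265) and Tln1, the main talin gene, by 0.63 on the log2 scale (adjusted p = 1.85e-06 in edgeR), whereas Anxa2 fell by 0.70 on the log2 scale (adjusted p = 2.16e-06 in edgeR).

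Of the 19 tested LIM-domain genes, 6 were higher and 5 lower, with a median of -0.19. The lower count was 3 without the first and 8 without the third control culture. Nebl, which encodes nebulette and its short form LASP2, fell by 1.54 (adjusted p = 2.55e-06) and Lima1 by 0.84 on the log2 scale (adjusted p = 0.0014 in edgeR), and Mical3 rose by 0.70 on the log2 scale (adjusted p = 1.59e-05 in edgeR). Micall2 had 0.69 (adjusted p = 0.0367 in edgeR), which rose above 0.05 with any one of 5 cultures left out, up to 0.165 without the first control culture. Among the 4 tested genes of SRF and its cofactors, 2 were higher and 1 lower, with a median of 0.11, and 1 was higher with any culture but the first control culture left out. Mkl2 (MRTF-B) rose by 0.67 (adjusted p = 2.33e-05) and Scai, an inhibitor of these cofactors, fell by 0.51 on the log2 scale (adjusted p = 0.000193 in edgeR). Mkl1 (MRTF-A) had 0.21 (adjusted p = 0.0478 in edgeR, and up to 0.213 with 1 culture left out), and Srf itself had 0.010 (adjusted p = 0.933 in edgeR).

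Of the 15 tested myosin genes, 8 were lower and 4 higher, with a median of -0.24. The higher count was 2 when the first or second control culture, or the first treated culture, was left out. Myh11 and Myh10, which encode conventional myosin heavy chains, fell by 1.48 (adjusted p = 4.53e-08) and 0.84 on the log2 scale (adjusted p = 1.03e-06 in edgeR). Myh11 went from 51.6 ± 7.21 to 18.5 ± 2.40 CPM (SD, n = 3 each). The membrane myosin genes Myo1f and Myo1d rose by 1.00 (adjusted p = 1.39e-06) and 0.77 on the log2 scale (adjusted p = 0.0173 in edgeR, and up to 0.0802 for Myo1d without the first treated culture). Whether the lists differ from each other was not tested.

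**Figure D4:**
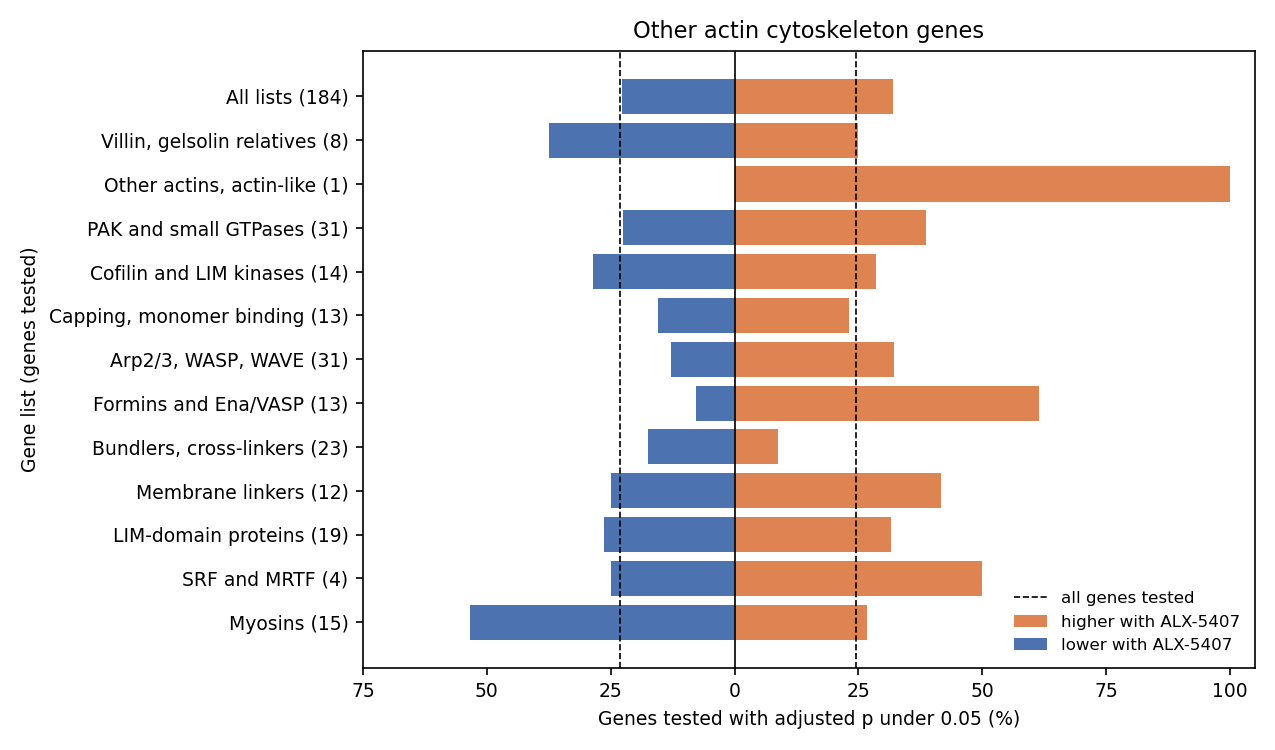
Share (%) of tested genes in each of 12 actin cytoskeleton lists, and in all lists together, with an adjusted p-value under 0.05 in edgeR, higher with ALX-5407 to the right and lower to the left; dashed lines mark the shares among all genes tested (24.5% and 23.2%) and the number of genes tested stands after each name. Formins and Ena/VASP genes reach 61.5% on the higher side and myosins 53.3% on the lower side, while the list of other actins rests on 1 gene.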

How the data were processed

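RNA was sequenced from 6 cultures, 3 in each group. The authors deposited raw counts per gene, whole numbers without normalization. The labels' processing notes name fastp, HISAT2 2.0.5, featureCounts 1.5.0-p3 and mm10, and the annotation release and use of strand are not given in the sources used here. Gene positions and lengths came with the file, and exons, transcripts and pseudogenes from GENCODE M21 (GRCm38).

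Genes were filtered with filterByExpr, scaled by TMM and compared with edgeR 4.0.16 (quasi-likelihood test, R 4.3.3), with Benjamini-Hochberg adjustment over 15938 genes. Standard errors came from the fold change and its F statistic. That statistic rests on a spread estimate shared in part across genes, so they do not reflect a gene's own cultures alone. RPKM is TMM-scaled CPM per kilobase of gene length. Pseudogene copies were found with BLAST 2.17.0. The edgeR procedure was also run on simulated counts in which few genes changed. That run checks the code and does not give the error rate in these data, where 47.7% of genes were called.

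The members and lists were chosen with earlier results of these data known. Named list genes are up to 4 per list, called at adjusted p under 0.05, with the largest changes and a mean of at least 50 counts. Outside this rule, Scin, Vil1, Acta1, Actc1, Pak2, Pak3, Rac1, Rac2, Cdc42, Cfl1, Limk1 and Srf were named with their values seen. DESeq2 1.42.0, limma-voom (limma 3.58.1), other scalings and filters, a replicate block and each culture left out were tried. With 3 cultures a group, an exact permutation test of 1 gene cannot reach a p-value under 0.1. At this depth, genes of few reads such as Ablim3 have wide errors. 0 sample columns of the file were left unused. Some genes that the rule selects are not reported here.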

Additional observations from a re-analysis of the deposited data

How the results depend on the processing

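Each member was recomputed with 8 other settings of scaling, filter, tool or block and with each culture left out. The directions of 9 members held in all of these, and Actg1 alone turned. With library totals alone as scaling, the log2 fold change of Flii was 0.13 and that of Ablim1 -0.068, and that setting moved the median of all genes by 0.059. The cause of the other changes was not tested. With 1 culture left out, log2 fold changes ranged from 2.69 to 3.58 for Avil, 0.61 to 0.75 for Svil, 0.15 to 0.30 for Gsn, 0.029 to 0.11 for Flii, -0.51 to -0.42 for Capg, -0.19 to -0.10 for Ablim1, -3.93 to -3.61 for Ablim3, 0.51 to 0.62 for Actb, -0.039 to 0.14 for Actg1 and -1.63 to -1.45 for Pak1. List genes then numbered 51 to 56 higher and 36 to 55 lower, with 3 to 4 up and 4 to 5 down by more than 1 on the log2 scale, and over the other settings 52 to 69 higher and 37 to 51 lower. Of 44 named list genes, 38 stayed under an adjusted p of 0.05 in all 14 alternatives, and Vill, Twf1, Tesk2, Micall2, Mkl1 and Myo1d did not. The adjusted p of Myo1d was above 0.05 without the first or second control culture too (0.0586 and 0.0751), Twf1 and Micall2 with upper quartile scaling (0.0629 and 0.0536), and Mkl1 in 9 alternatives, DESeq2 among them (0.0736). Deviations of same-numbered cultures from their group means correlated at -0.0084, 0.0036 and 0.063 across all genes fitted. Differently numbered cultures correlated at -0.061 to 0.066. No pairing by replicate number was seen in these values, which cannot exclude a shared mouse or batch that acts on some genes. With the replicate number as a block, 62 list genes were higher and 47 lower. Levels per length depend on the length used, and with that of the longest transcript all members' levels were higher.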

Other observations

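Over the 6 libraries, genes with a mean of at least 50 counts were ranked by Pearson's correlation of log2 CPM with Avil, Ablim3 and Pak1. The libraries form 2 groups that differ in many genes (47.7% of those tested), so a high value mostly reflects the difference between the groups, and no test was made. Closest to Avil were Mex3c (r = 0.999), Ska2 (r = 0.997) and Nup155 (r = 0.996, 12116 genes compared). Closest to Ablim3 were Gm47662, Akap9 and Golgb1 (r = 0.999 each), and closest to Pak1 were Gm10505 (r = 0.999), Mcfd2 (r = 0.998) and Cd200 (r = 0.997). The sizes of the changes were unlike those of the members in most cases. Mex3c had a log2 fold change of 0.57 where Avil had 2.99, and Cd200, a surface glycoprotein gene, fell by 1.60 on the log2 scale, from 466 ± 45.4 to 154 ± 13.3 CPM (SD, n = 3 each), beside -1.54 for Pak1.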
